A study of Homo sapiens with 18 samples.

Results

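PAEP, ZNF385A, ASB9 and PDZD2 are 4 genes with some of the largest mRNA changes when PRMT5 was depleted from Dex-treated MDA-MB-231 cells, PAEP and ZNF385A downwards and ASB9 and PDZD2 upwards. They were chosen by that difference out of 60642 gene symbols counted, of which 15298 had enough counts to be tested, and all 4 were among the genes tested. MDA-MB-231 is an established human triple-negative breast cancer (TNBC) line. Cells carried a non-specific siRNA (siNS), siRNAs against HP1γ (siHP1γ) or siRNAs against PRMT5 (siPRMT5), and each was given 100 nM of the glucocorticoid dexamethasone (Dex) or its vehicle ethanol (Eth) for 8 h, which makes 6 conditions with 3 replicate libraries each. The study asked whether PRMT5 and HP1γ act as coregulators of the glucocorticoid receptor (GR) in TNBC. Because the genes were picked from siPRMT5 Dex against siNS Dex, that difference is given here as a description without a test, and the tests below compare siNS Eth, siPRMT5 Eth, siHP1γ Eth and siHP1γ Dex with each other. Of these, siNS Eth and siPRMT5 Eth entered the choice through a lower limit of 5 CPM on the mean level, which each of the 4 genes also exceeded over the 6 Dex libraries alone (8.29 CPM for ASB9, the lowest).

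PRMT5 places symmetric dimethyl marks on arginines of histones, splicing proteins and transcription factors, and is known both as a repressor of genes through histone methylation and as a coactivator. HP1γ, encoded by CBX3, binds methylated lysine on histone H3 and is found in heterochromatin as well as at transcribed genes. GR is a nuclear receptor that moves to DNA when it binds a glucocorticoid, and raises or lowers transcription with the help of such coregulators. The 4 genes encode proteins of unlike kinds. PAEP encodes glycodelin, a secreted glycoprotein of the lipocalin family best known from the endometrium. ZNF385A encodes a zinc finger protein that binds RNA and interacts with p53. ASB9 encodes an ankyrin repeat and SOCS box protein that brings substrates, among them creatine kinases, to a cullin-RING ubiquitin ligase. PDZD2 encodes a large protein with several PDZ domains, from which a secreted fragment can be cleaved.

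The genes lie on different chromosomes of hg38, with coordinates from GENCODE release 44. PAEP (ENSG00000122133.17) spans chr9:135561756-135566955 on the plus strand and ZNF385A (ENSG00000161642.18) spans chr12:54369133-54391298 on the minus strand. ASB9 (ENSG00000102048.16) spans chrX:15235288-15270467 on the minus strand. PDZD2 (ENSG00000133401.16) spans chr5:31639131-32110932 on the plus strand and is the longest of the 4, with 25 exons in its canonical transcript against 7 in each of the others. All 4 are protein-coding, and counts were assigned per gene, so the transcripts used cannot be told apart. The exons of PDZD2 shared 8 bases with the microRNA gene MIR4279, which had 0 CPM in every library, and the exons of the other 3 genes shared none with another annotated gene. Of the pseudogenes, PAEPP1 had 0 counts in all 18 libraries and ASB9P1 had at most 9.

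RefSeq promoter sequences (GRCh38.p14, 250 bases before to 50 after the start) were at hand for PAEP and ASB9, 1 gene that went down and 1 that went up with PRMT5 depletion, and they are printed to show how unlike their proximal sequences are. Capitals mark an AP-1 site (TGANTCA) in PAEP and a CCAAT box in ASB9.
PAEP promoter, chr9:135561506-135561805, plus strand: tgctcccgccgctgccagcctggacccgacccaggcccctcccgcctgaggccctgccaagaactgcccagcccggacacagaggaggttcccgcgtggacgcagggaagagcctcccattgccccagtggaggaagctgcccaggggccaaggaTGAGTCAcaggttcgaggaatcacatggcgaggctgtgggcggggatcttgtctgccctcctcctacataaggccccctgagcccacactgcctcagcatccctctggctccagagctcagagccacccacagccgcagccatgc
ASB9 promoter, chrX:15270418-15270717, minus strand: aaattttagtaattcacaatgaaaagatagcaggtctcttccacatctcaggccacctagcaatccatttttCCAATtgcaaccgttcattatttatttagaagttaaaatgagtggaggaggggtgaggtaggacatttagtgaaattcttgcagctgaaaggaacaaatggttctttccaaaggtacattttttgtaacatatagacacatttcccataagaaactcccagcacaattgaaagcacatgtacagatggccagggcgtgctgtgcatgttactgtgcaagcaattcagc
Both strands of each window were searched for TGANTCA, for AGAACA (the core of a GR binding element), for TATAAA and for CCAAT, motifs that do not overlap each other. PAEP held 1 AP-1 site at position -95 from the start and no match to the other motifs. ASB9 held 1 CCAAT at position -178 and no match to the others. Of 35116 RefSeq promoters of this length, 7.71% held the AP-1 site, 14.8% AGAACA, 11.5% TATAAA and 34.6% CCAAT. These are matches of letters and were not tested for binding. ZNF385A and PDZD2 had no entry in the promoter table.

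The 18 libraries held 8682992 to 12472381 counts each, and levels are given as CPM, the counts of a gene per 1000000 counts of its library, after scaling by the trimmed mean of M-values (TMM). The targeted transcripts were depleted in every library. PRMT5 was at 6.1 to 11.5 CPM in the siPRMT5 libraries against 226 to 262 CPM in siNS, and CBX3 at 9.23 to 15.8 CPM in the siHP1γ libraries against 220 to 274 CPM. The mean of PRMT5 was 2.97% of its siNS level in siPRMT5 Eth cells and 4.39% in siPRMT5 Dex cells, and that of CBX3 3.87% and 5.96% in siHP1γ cells with Eth and Dex. PRMT5 mRNA was also lower in siHP1γ cells, at 83.9% of siNS with Eth and 78.7% with Dex. NR3C1, which encodes GR, was at 113% of siNS in siPRMT5 Eth cells and 124% in siPRMT5 Dex cells. Of the markers of the line, VIM was at 5444 CPM or more, the estrogen and progesterone receptor genes ESR1 and PGR did not exceed 0.218 CPM, and the epithelial cadherin gene CDH1 did not exceed 0.104 CPM. The other markers of the luminal list were detected, ERBB2, a receptor tyrosine kinase gene, at 24.5 to 36 CPM and the epithelial adhesion gene EPCAM at 8.57 to 14 CPM. AXL, a receptor tyrosine kinase of the mesenchymal list, changed most of the line markers in PRMT5 depletion without Dex, from 963 ± 46.6 CPM in siNS Eth to 221 ± 9.12 in siPRMT5 Eth cells (SD, n = 3).

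In Dex-treated cells, the condition that chose the genes, PAEP stood at 15.9, 15.4 and 18.5 CPM in the 3 siNS libraries and at 1.86, 1.15 and 1.92 CPM in the 3 siPRMT5 libraries. ZNF385A was at 16.7, 14.1 and 15.1 CPM in siNS Dex and at 2.64, 1.32 and 2.38 CPM in siPRMT5 Dex. Both transcripts were thus left at a small part of their control level in each depleted library, 9.91% of the siNS mean for PAEP and 13.8% for ZNF385A. ASB9 went from 1.94, 2.29 and 2.0 CPM in siNS Dex to 14.8, 14.1 and 14.6 CPM in siPRMT5 Dex, and PDZD2 from 37.8, 36.8 and 41.1 CPM to 217, 258 and 261 CPM. Every siPRMT5 library was above every siNS library for these 2 genes, and 51.5% of all genes were as free of overlap in this comparison. The log2 fold changes were -3.36 for PAEP (standard error 0.204), -2.89 for ZNF385A (0.181), 2.80 for ASB9 (0.197) and 2.67 for PDZD2 (0.101). As background to this choice, 42.4% of the 15298 genes passed an adjusted p of 0.05 in this comparison.

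By size alone, among all 15298 genes, PAEP and ZNF385A held ranks 6 and 14 of the decreases and ASB9 and PDZD2 ranks 14 and 17 of the increases. Ranked by size among genes past that threshold that averaged 5 CPM or more and had the same direction in each same-numbered pair of libraries, PAEP held rank 1 and ZNF385A rank 3 of 2834 decreases. FGFRL1, a fibroblast growth factor receptor without a kinase domain, stood between them at -3.13. The next decrease outside the set was that of EHD2, an ATPase of caveolae, at -2.83, against -2.89 for ZNF385A just inside. On the other side ASB9 and PDZD2 held ranks 2 and 3 of 2734 increases, below ADAMTS15, a secreted metalloprotease, at 3.40. VIPR1, the receptor of vasoactive intestinal peptide, followed outside the set at 2.41. The edge of the choice is therefore narrow for the decreases and wider for the increases. Depletion of PRMT5 and any other effect of this siRNA pool cannot be told apart in these data, since the study used 1 siRNA pool per target. In bulk RNA, fewer cells that express a gene and less RNA per cell cannot be told apart either.

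**Figure D1:**
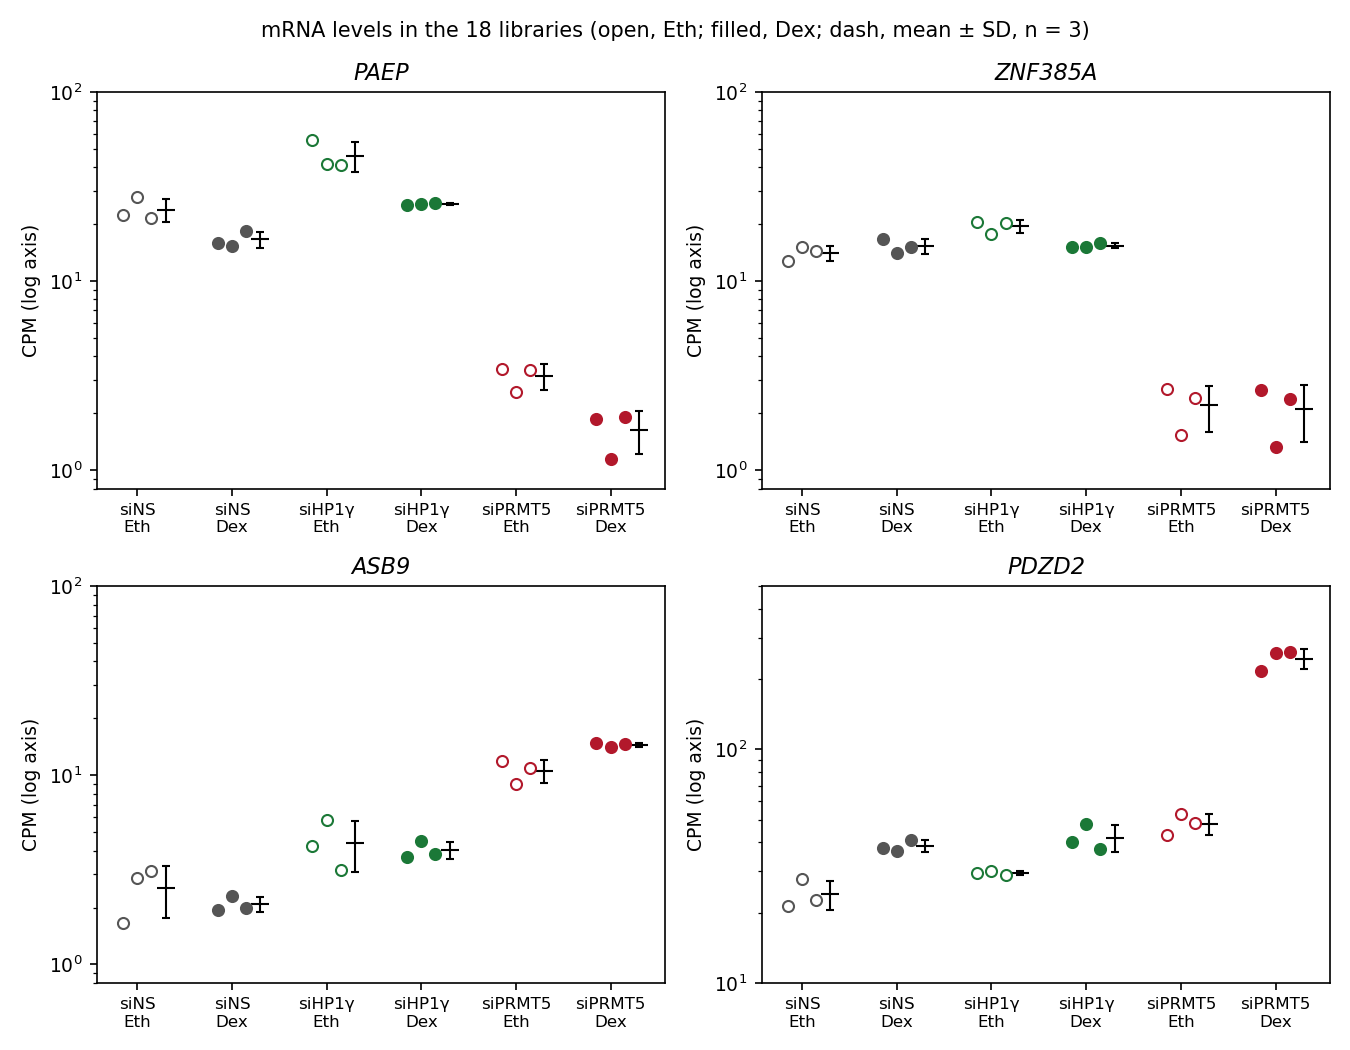
Level of each gene in CPM (log axis) in the 18 libraries, 3 per condition, with open points for Eth, filled points for Dex and the mean ± SD (n = 3) beside them. PAEP and ZNF385A sit lowest in both siPRMT5 conditions, ASB9 sits highest in both, and PDZD2 reaches 217 to 261 CPM in siPRMT5 Dex while its siPRMT5 Eth libraries reach at most 52.6 CPM.

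Without Dex, PRMT5 depletion moved all 4 genes in the direction they took with Dex. Each passed the threshold (edgeR quasi-likelihood test, adjusted p under 0.05 over all 15298 genes) in a comparison whose difference played no part in the choice, and none of the 4 overlapped between siPRMT5 Eth and siNS Eth. The rates over all genes were high, with 42.1% called and 49.1% not overlapping, and 20.6% of all genes were called higher and 21.6% lower.

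PAEP was at 22.3, 27.7 and 21.5 CPM in siNS Eth and at 3.43, 2.58 and 3.4 CPM in siPRMT5 Eth. The depleted cells kept 13.2% of the control mean, 3.14 ± 0.482 against 23.9 ± 3.37 CPM (SD, n = 3). The log2 fold change was -2.91 (95% interval -3.28 to -2.55, edgeR adjusted p 1.07e-12), rank 12 by size of decrease among all genes tested. ZNF385A was at 12.7, 15.1 and 14.5 CPM in siNS Eth and at 2.68, 1.53 and 2.4 CPM in siPRMT5 Eth. It kept 15.6% of its control mean, with a log2 fold change of -2.66 (interval -3.04 to -2.27, edgeR adjusted p 1.75e-11) and rank 18. The depleted levels of both genes rested on few reads, 14 to 34 counts per siPRMT5 library for PAEP and 13 to 27 for ZNF385A, which limits how exactly the remaining level is known.

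ASB9 was at 1.66, 2.85 and 3.11 CPM in siNS Eth and rose to 11.9, 9.04 and 10.9 CPM in siPRMT5 Eth. All depleted libraries were well above all controls, and the mean was 4.18-fold higher. The log2 fold change was 2.05 (interval 1.63 to 2.47, edgeR adjusted p 9.5e-09), rank 61 by size of increase. Here the control level was the weakly covered one, at 15 to 30 counts per siNS library. PDZD2 was at 21.3, 27.7 and 22.6 CPM in siNS Eth and at 43.0, 52.6 and 48.2 CPM in siPRMT5 Eth. Its mean was 2.01-fold higher, and its log2 fold change of 1.0 (interval 0.77 to 1.23, edgeR adjusted p 5.87e-08) held rank 440. PDZD2 thus ranked far lower among the increases without Dex than with it. PAEP, ZNF385A and ASB9 changed by 2.05 or more on the log2 scale, in size, in both treatments. The ranks with Dex come from the comparison that chose the genes, so the contrast of ranks is a description.

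**Figure D2:**
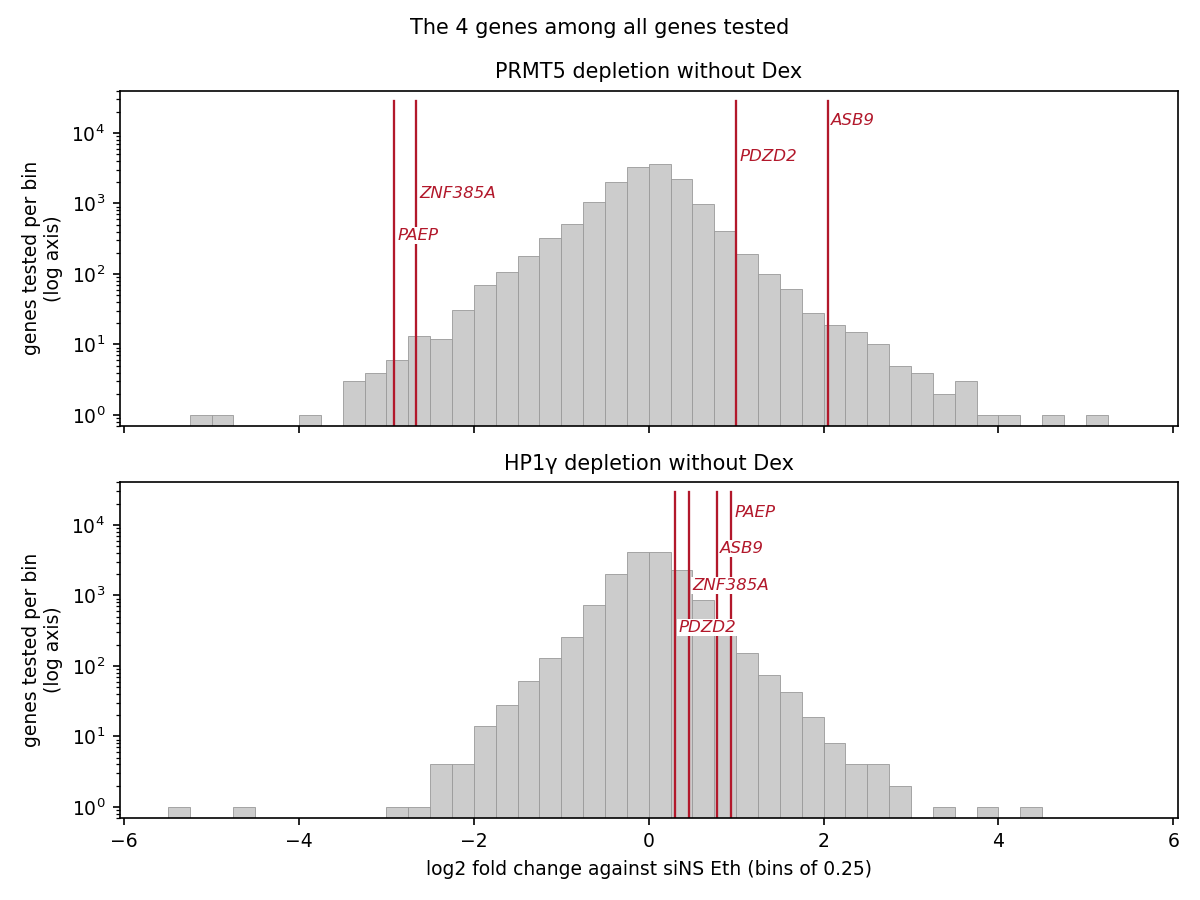
Number of genes tested (log axis) by log2 fold change against siNS Eth in bins of 0.25, for PRMT5 depletion (upper) and HP1γ depletion (lower), with red lines at the 4 genes. With PRMT5 depletion PAEP (-2.91) and ZNF385A (-2.66) lie in the left tail, ASB9 (2.05) in the right tail and PDZD2 at 1.0, and with HP1γ depletion all 4 lie between 0.30 and 0.94.

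HP1γ depletion without Dex gave a different picture: all 4 genes were higher than in siNS Eth cells, so PAEP and ZNF385A went the other way than with PRMT5 depletion. Each of the 4 was called (edgeR, adjusted p under 0.05) and none overlapped with siNS Eth, against 31.8% of all genes called, 16.5% called higher, and 45.5% not overlapping. PAEP reached 55.9, 41.5 and 40.9 CPM in siHP1γ Eth, about 1.92-fold its control level, with a log2 fold change of 0.94 (interval 0.70 to 1.19, edgeR adjusted p 1.41e-06). ZNF385A reached 20.6, 17.7 and 20.2 CPM, with a log2 fold change of 0.46 (interval 0.20 to 0.73, edgeR adjusted p 0.00705). The rise of ZNF385A was small, but its lowest siHP1γ Eth library was still above its highest siNS Eth library.

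ASB9 was at 4.24, 5.80 and 3.15 CPM in siHP1γ Eth, and its lowest library lay barely above the highest siNS Eth library at 3.11 CPM. Its log2 fold change of 0.78 (interval 0.30 to 1.26, edgeR adjusted p 0.0123) rested on single libraries: without siNS Eth replicate 1 it was 0.55 (adjusted p 0.0943) and without siHP1γ Eth replicate 2 it was 0.52 (adjusted p 0.125). PDZD2 was at 29.4, 30.0 and 29.0 CPM, and its log2 fold change of 0.30 (interval 0.07 to 0.54, edgeR adjusted p 0.0458) lay at the threshold. It was not called by DESeq2 (adjusted p 0.0527) and lost its call in 13 of the 18 fits that left out a library, for example without siNS Eth replicate 1 (0.22, edgeR adjusted p 0.214). Among all genes called in this comparison 52.1% were higher, and 63.8% with libraries scaled by their totals alone. All 4 genes were still higher under that scaling. It raised the median log2 fold change of all genes from 0.013 to 0.069, so it is no check on their direction.

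The depletions were compared directly in Eth-treated cells, a difference that was not used to choose the genes. All 4 genes differed between siPRMT5 Eth and siHP1γ Eth (edgeR, adjusted p under 0.05), where 48.4% of all genes did. PAEP was 14.5-fold lower in siPRMT5 Eth (log2 -3.86, standard error 0.165, edgeR adjusted p 1.07e-15), and ZNF385A was 8.7-fold lower (-3.12, 0.177, adjusted p 2.58e-13). ASB9 was 2.42-fold higher in siPRMT5 Eth (1.28, 0.181, edgeR adjusted p 2.24e-06) and PDZD2 1.63-fold higher (0.70, 0.107, adjusted p 6.75e-06). ASB9 and PDZD2 therefore had positive changes under both siRNAs, larger ones under siPRMT5. Under siHP1γ, however, the call of ASB9 rested on single libraries and that of PDZD2 lay at the threshold. PAEP and ZNF385A moved in opposite directions under the 2 siRNAs.

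With Dex, HP1γ depletion is given as a description, because siNS Dex was used in the choice. PAEP was at 25.3, 25.6 and 25.9 CPM in siHP1γ Dex, above all siNS Dex libraries (log2 0.62, standard error 0.129), and ASB9 at 3.70, 4.50 and 3.85 CPM was also above them (0.95, 0.239). ZNF385A, at 15.1, 15.2 and 15.9 CPM, and PDZD2, at 40.2, 48.1 and 37.4 CPM, overlapped with siNS Dex (0.00, standard error 0.128, and 0.12, 0.104). In this comparison 36.9% of all genes did not overlap. Each of the 4 genes changed less in siHP1γ Dex than in siPRMT5 Dex cells. Choosing the genes by their siPRMT5 Dex change favours this outcome, so no conclusion is drawn from it.

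**Figure D3:**
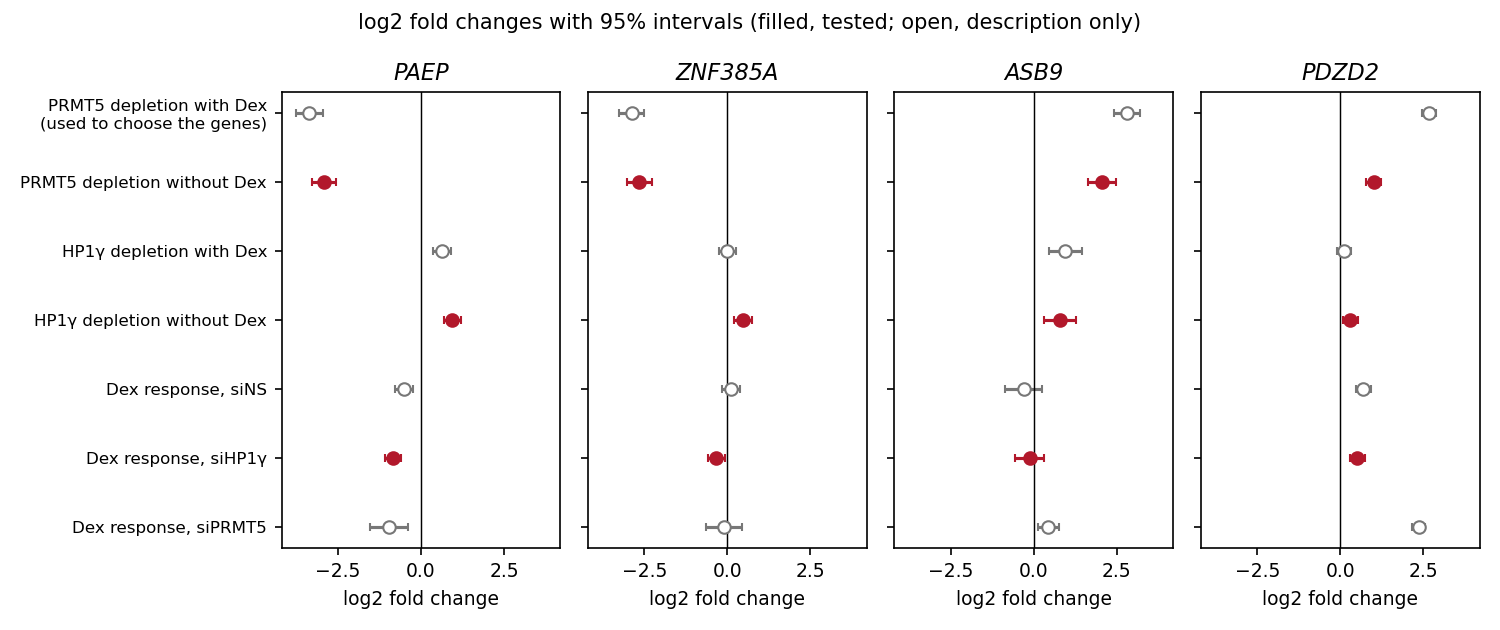
log2 fold change of each gene in 7 comparisons with 95% intervals, filled red where the difference was tested and open grey where it is a description. PAEP and ZNF385A lie left of 0 with PRMT5 depletion and at 0.00 or right of it with HP1γ depletion, and PDZD2 has its largest Dex response, 2.36, in siPRMT5 cells.

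The 4 genes also differed in how they answered to Dex itself. A Dex response was called where a gene passed an adjusted p of 0.01 and changed by 1.5-fold or more, the lower of 2 fold limits that the study's text names for Dex-regulated genes. In siHP1γ cells, where the response could be tested, 1 of the 4 genes was called, against 1.67% of all genes. That gene was PAEP, which fell from 55.9, 41.5 and 40.9 CPM with Eth to the 25.3 to 25.9 CPM of the Dex libraries (log2 -0.84, interval -1.09 to -0.60, edgeR adjusted p 1.58e-05). Its fold change of 1.8 was under the other limit of 2, with which none of the 4 genes was called. PDZD2 had a log2 fold change of 0.51 (edgeR adjusted p 0.00311), but its fold change of 1.42 was under the limit. ZNF385A (-0.34, edgeR adjusted p 0.124) and ASB9 (-0.13, adjusted p 0.808) did not pass, and the intervals of their differences were -0.60 to -0.08 and -0.56 to 0.29.

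In siNS and siPRMT5 cells the Dex responses share libraries with the choice and are given as values. PAEP was lower with Dex in both, by log2 -0.52 (standard error 0.131) in siNS and -0.97 (0.282) in siPRMT5 cells, so its mean was below the Eth level under each of the 3 siRNAs. Over all genes 27.9% did not overlap between Eth and Dex in siNS cells and 28.7% did not in siPRMT5 cells. ZNF385A overlapped in both, with log2 fold changes of 0.12 and -0.11. ASB9 overlapped in siNS cells (-0.31, standard error 0.27), and in siPRMT5 cells every Dex library was above every Eth library (0.44, 0.152).

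In siNS and siPRMT5 cells PDZD2 had the largest Dex responses of the 4, whereas in siHP1γ cells that of PAEP was larger in size. In siNS cells it went from the 21.3 to 27.7 CPM of the Eth libraries to between 36.8 and 41.1 CPM with Dex, a fold change of 1.61. In siPRMT5 cells it went from between 43.0 and 52.6 CPM to between 217 and 261 CPM, a fold change of 5.12. The response was thus 1.67 larger on the log2 scale in siPRMT5 than in siNS cells (standard error 0.149). It held rank 44 from the top among the signed differences of all genes. The differences were 0.75 (0.31) for ASB9, -0.23 (0.294) for ZNF385A and -0.45 (0.312) for PAEP. These differences contain the contrast that chose the genes, and no p is given. Over all genes 3.80% had a called difference of Dex response, a share that moved with single libraries from 319 to 897 genes around 582.

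Ordered by mean level, PAEP went from siPRMT5 Dex (1.64 ± 0.428 CPM) over siPRMT5 Eth (3.14 ± 0.482), siNS Dex (16.6 ± 1.68) and siNS Eth (23.9 ± 3.37) to siHP1γ Dex (25.6 ± 0.34) and siHP1γ Eth (46.1 ± 8.48; SD, n = 3 each). Only the neighbours siNS Eth and siHP1γ Dex overlapped in this order. ZNF385A went from siPRMT5 Dex (2.11 ± 0.701 CPM) and siPRMT5 Eth (2.2 ± 0.603), which overlapped, over siNS Eth (14.1 ± 1.25), siNS Dex (15.3 ± 1.33) and siHP1γ Dex (15.4 ± 0.436), which also overlapped as neighbours, to siHP1γ Eth (19.5 ± 1.57). ZNF385A therefore had a low level in siPRMT5 cells, with or without Dex. Its levels in siNS Eth, siNS Dex and siHP1γ Dex were similar. Every siHP1γ Eth library, at 17.7 CPM or more, lay above all of these, which reached at most 16.7 CPM.

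ASB9 went from siNS Dex (2.08 ± 0.186 CPM) and siNS Eth (2.54 ± 0.775), which overlapped, over siHP1γ Dex (4.02 ± 0.423) and siHP1γ Eth (4.4 ± 1.33), which overlapped, to siPRMT5 Eth (10.6 ± 1.46) and siPRMT5 Dex (14.5 ± 0.322). Its levels were set apart by siRNA first. PDZD2 went from siNS Eth (23.9 ± 3.4 CPM) over siHP1γ Eth (29.5 ± 0.514) to siNS Dex (38.6 ± 2.23), siHP1γ Dex (41.9 ± 5.54) and siPRMT5 Eth (47.9 ± 4.79), which overlapped as neighbours, and then to siPRMT5 Dex (245 ± 24.3). The highest condition for PDZD2 was siPRMT5 Dex, which was used to choose the gene, so its place at the top is a description.

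Over the 18 libraries, the log2 CPM of PAEP and ZNF385A had a Pearson correlation of 0.970, and those of ASB9 and PDZD2 one of 0.767. These are descriptions over libraries in 6 conditions that also chose the genes, and say nothing of shared control. Among 11407 other genes that averaged 5 CPM or more, the most like PAEP were FNBP1 (0.988), SAMD4B (0.986), ABHD4 (0.985), GPX3 (0.984) and SLC2A1 (0.983), the last of which encodes a glucose transporter. The most like ZNF385A were PITPNA (0.989), CPNE2 (0.988), and GPX3, CYB5R3 and ABHD14B (0.987 each), so GPX3, a secreted glutathione peroxidase, stood in both lists. The most like ASB9 were ANXA5 (0.954), RCN1P2 (0.952), ZNF641 (0.948), ATXN1 (0.945) and AC009404.1 (0.944). For PDZD2 they were ADAMTS9 (0.976), SORT1 (0.965), MEGF9 (0.963), ZNF217 (0.957) and EPC2 (0.956). ADAMTS9, a secreted metalloprotease, had a log2 Dex response of 1.98 in siPRMT5 and 1.03 in siNS cells. SORT1, which encodes the sorting receptor sortilin, had 1.35 and 0.44, and PDZD2 itself 2.36 and 0.69.

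In PRMT5 depletion without Dex, each of the 4 genes changed more in size than any of its own nearest neighbours. Choosing the genes by their large change with Dex favours this outcome, so no conclusion is drawn from it. The 3 nearest genes tested on each side of each gene, 24 in all, had log2 fold changes between -0.88 and 1.37 in PRMT5 depletion without Dex, with 5 higher, 8 lower and 11 not called. This is 54.2% called, near the 42.1% of all genes. NCKAP1L, which encodes a subunit of the WAVE actin complex and lies 106 kb from ZNF385A, was the neighbour that changed most, and it rose (1.37, standard error 0.247, edgeR adjusted p 6.68e-05) where ZNF385A fell. ITGA5, an integrin subunit gene 3.96 kb from ZNF385A, had a log2 fold change of -0.07 (edgeR adjusted p 0.453). The 6 neighbours of PAEP lay between -0.48 and 0.26. PIR, the pirin gene 114 kb from ASB9, fell by 0.88 on the log2 scale (edgeR adjusted p 5.36e-06) where ASB9 rose. GOLPH3, a Golgi protein gene 13.8 kb from PDZD2, had a log2 fold change of -0.13 (edgeR adjusted p 0.229). In HP1γ depletion without Dex, 7 of the 24 neighbours rose and 4 fell (45.8% called against 31.8% of all genes), and PAEP alone of the 4 genes changed more than all of its neighbours. PHC1P1 (0.89, at a distance of 1020 kb), ITGA5 (0.61) and, in size, HNRNPA1 (-0.55) exceeded ZNF385A. The pseudogene NPM1P9 (-0.91) exceeded ASB9 in size, and LSP1P3 (0.57, edgeR adjusted p 0.297), at a distance of 2712 kb, exceeded PDZD2. None of the 6 neighbours of PDZD2 had a called Dex response in siPRMT5 cells, and their log2 responses lay between -0.16 and 0.14.

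The relatives and pathway partners of the 4 genes were counted in the same tests without Dex. Of 18 other lipocalin genes none had enough counts to be tested, so PAEP was the lipocalin of these lists that was expressed at a testable level. Of 11 genes of the ZNF385 and ZMAT zinc finger families, 7 were tested, and with PRMT5 depletion 1 rose (ZMAT5, 0.43) and 1 fell (28.6% called against 42.1% of all genes), with a median of -0.01 against 0.000 over all genes. The gene that fell was ZNF385B, the closest relative by name, at 3.15 ± 1.02 CPM in siNS Eth and 0.967 ± 0.189 CPM in siPRMT5 Eth (SD, n = 3; log2 -1.68, edgeR adjusted p 0.000153). Unlike ZNF385A, it was higher in siPRMT5 than in siNS cells when Dex was given (0.79, edgeR adjusted p 0.00556), and its Dex response differed between these cells by 2.47 (edgeR adjusted p 0.000553). HP1γ depletion raised ZMAT1 (0.64) and lowered ZMAT3 (-0.44) in this list (28.6% called against 31.8%).

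Of 23 genes of the p53 axis, which was counted because ZNF385A interacts with p53, all were tested, and with PRMT5 depletion 9 rose and 3 fell (52.2% called against 42.1% of all genes, median 0.18). TP53INP1, a p53 target involved in stress responses, rose from 13.2 ± 2.28 to 35.5 ± 3.91 CPM (log2 1.43, edgeR adjusted p 3.88e-09), and the cell cycle inhibitor CDKN1A (-0.45), GADD45A (-0.55) and AEN (-0.38) fell. With HP1γ depletion 7 rose and 4 fell (47.8% called against 31.8%, median 0.19 against 0.013). MDM2, the ubiquitin ligase of p53, fell from 90.7 ± 15.1 to 37.3 ± 0.608 CPM (-1.28, edgeR adjusted p 4.49e-09). The list therefore moved in both directions under each siRNA.

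Of 17 relatives of ASB9, 6 were tested. With PRMT5 depletion ASB8 (0.51) and ASB6 (0.27) rose, and ASB13 (-0.83) and ASB1 (-0.26) fell (66.7% called against 42.1% of all genes), with a median of 0.19 against 0.000. No relative changed as much as ASB9, an outcome that the choice of ASB9 by its large change with Dex favours. With HP1γ depletion ASB7 (0.29) rose and ASB1 (-0.47) fell (33.3% called against 31.8%). Of 11 genes for the cullin-5 ligase and for creatine kinases, 7 were tested, and with PRMT5 depletion 0 rose and 3 fell (42.9% called against 42.1% of all genes), namely UBE2F (-0.98), a conjugating enzyme for NEDD8, the ligase ARIH2 (-0.47) and CKB (-0.32). CKB encodes brain-type creatine kinase, a known substrate of ASB9, and went from 196 ± 22.1 to 158 ± 21.5 CPM (SD, n = 3; edgeR adjusted p 0.0227). With HP1γ depletion without Dex, where ASB9 was also called higher, CKB was not called (0.09, edgeR adjusted p 0.588). Protein was not measured in these libraries, and a link between ASB9 and CKB was not tested. ELOC (-0.27), an adaptor subunit of the ligase, was the gene of this list called with HP1γ depletion (14.3% against 31.8%).

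Of 27 other genes for proteins with PDZ domains, 18 were tested, and with PRMT5 depletion 8 rose and 3 fell (61.1% called against 42.1% of all genes, median 0.27 against 0.000). MAGI1, a junctional scaffold, rose from 140 ± 2.96 to 287 ± 21.7 CPM (log2 1.04, edgeR adjusted p 7.81e-12). IL16, whose product like that of PDZD2 is cleaved to a secreted fragment, rose from 1.33 ± 0.107 to 3.28 ± 0.436 CPM (1.29, edgeR adjusted p 0.000641), and LNX1, a ubiquitin ligase, from 1.22 ± 0.607 to 3.04 ± 0.586 CPM (1.29, adjusted p 0.000646). With HP1γ depletion 9 rose and 1, DLG1 (-0.31), fell (55.6% called against 31.8%, median 0.30 against 0.013). In siPRMT5 cells 0 genes of this list rose with Dex and 2 fell, IL16 (-1.85, edgeR adjusted p 5.39e-05) and MAGI1 (-0.67, adjusted p 3.63e-08, a change of under 2-fold), against 5.44% of all genes called.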

How the data were processed

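RNA of MDA-MB-231 cells was measured in 18 libraries, 3 per condition, grouped by the siRNA, treatment and replicate in their labels. The authors prepared libraries with Lexogen kits, mapped the reads on hg38 and deposited raw counts per gene symbol for each library. Their processing notes name Bowtie2 2.4.2, HTSeq 0.9.1 and DESeq2 2.11.40.7. The strand setting and the annotation used for counting are not given in the sources used here, and neither is whether the kit reads the 3′ end, so levels were not compared between genes. A deposited table of the authors' own comparisons (pooled mean normalised counts, log2 fold changes, their errors, test statistics and p-values) was not used.

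Genes were kept by filterByExpr and scaled by TMM, and all libraries entered a single quasi-likelihood fit (edgeR 4.0.16, R 4.3.3) that gave each condition its own mean and left 12 residual degrees of freedom. P-values were adjusted by Benjamini-Hochberg over 15298 genes. The fit was tested on simulated data. Replicates differed beyond counting noise in every pair, so none was merged, and p-values measure the spread between these libraries. Alternatives were DESeq2 1.42.0, its size factors, library totals alone, no filter, a minimum of 10 counts per library, a block for the replicate number, a fit of each comparison on its own libraries, each library left out in turn and, added after seeing the data, a fold limit of 2 for Dex responses. For log2 CPM a prior count of 2 was used. GENCODE 44 held 88.6% of the genes tested.

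The 4 genes and the lists were chosen with earlier results of these data known. The other genes named were the siRNA targets and NR3C1, those next to the 4 in the ranking, 3 neighbours per side, the 5 most correlated genes, pseudogenes, and list genes called with an absolute log2 fold change of at least 1 in a depletion without Dex. Other list genes and neighbours were named after their values were seen. The comparisons without Dex share libraries with each other.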

Additional observations from a re-analysis of the deposited data

Results flagged for a closer look

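The 4 genes were picked out here because PRMT5 and HP1γ depletion without Dex gave different changes by a direct test (edgeR, siPRMT5 Eth against siHP1γ Eth, 3 libraries each). The differences on the log2 scale were -3.86 for PAEP (adjusted p 1.07e-15), -3.12 for ZNF385A (adjusted p 2.58e-13), 1.28 for ASB9 (adjusted p 2.24e-06) and 0.70 for PDZD2 (adjusted p 6.75e-06). For PAEP and ZNF385A the depletions moved the gene in opposite directions from siNS Eth, and for ASB9 and PDZD2 in the same direction by different amounts. Under siHP1γ, however, the call of ASB9 against siNS Eth rested on single libraries and that of PDZD2 lay at the threshold. Of all genes, 48.4% differed in this comparison.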

How the results depend on the processing

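Of 404 values of the 16 tested results of the 4 genes under the alternatives, 386 kept their direction and their side of the threshold, among them all 100 for PRMT5 depletion without Dex. Of 500 values of the 20 results given as descriptions, 10 had the other sign, all of ZNF385A: 7 in HP1γ depletion with Dex, where the value was 0.00, 2 in the Dex response of siPRMT5 cells (-0.32 to 0.18 with each library left out) and 1 in the difference of Dex responses (-0.43 to 0.07). In HP1γ depletion without Dex, ASB9 ranged from 0.52 to 0.97 with each library left out, and was no longer called without siNS Eth replicate 1 (0.55) or siHP1γ Eth replicate 2 (0.52). PDZD2 ranged from 0.22 to 0.42 there and lost its call in 13 of the fits that left out a library, and with DESeq2 (0.30). The Dex response of ASB9 in siHP1γ cells, which was not called, ranged from -0.33 to 0.13 and turned positive without siHP1γ Eth replicate 2. With a fold limit of 2, chosen after seeing the data, PAEP (-0.84) lost its called Dex response in siHP1γ cells, and the genes called fell to 106 in siHP1γ (from 255), 194 in siNS and 373 in siPRMT5 cells (from 832), since the limit is stricter. The genes called for a different Dex response in siPRMT5 cells, 582 in all, ranged from 319 (without siNS Eth replicate 1) to 897 (without siHP1γ Dex replicate 1). They also moved over 1.5 times without siNS Dex replicate 1 (330), siNS Eth replicate 3 (337), siPRMT5 Eth replicate 2 (341), siPRMT5 Dex replicate 2 or siNS Dex replicate 3 (355 each). For all but the fold limit the cause was not tested.

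The replicate numbers gave a mixed picture of pairing. Deviations of same-numbered libraries correlated over 0.1 in 3 of 24 pairs (-0.0912 to 0.172). Among the libraries of other conditions, most of which carried another number, 10 of 18 libraries correlated best with one of their own number. Whether same-numbered libraries shared a batch was not tested. With the replicate number as a block, all 16 tested results of the 4 genes stayed on their side of the threshold, the 20 descriptions kept their sign, and PAEP had a log2 fold change of -2.92 in PRMT5 depletion without Dex.

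The remaining levels of PAEP and ZNF385A in siPRMT5 cells and the control level of ASB9 rest on 13 to 34 counts per library, so their fold changes are less exact than that of PDZD2. With 3 libraries per condition and 1 siRNA pool per target, an effect of the pool other than depletion cannot be told apart from depletion.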
